A study of Mus musculus with 8 samples.

Results

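The transcripts of the EGF receptor family were examined in mouse colonic organoids, epithelial cultures grown from isolated crypts. The set held 10 genes, found by symbol among the 45777 genes of the deposited table: the receptors Egfr, Erbb2 and Erbb3, the ligands Ereg, Areg, Hbegf, Tgfa, Epgn and Btc, and the receptor inhibitor Errfi1. All 10 had a row, and 9 passed the filter on low counts. Epgn did not.

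The KO organoids came from Reg3a ΔIEC mice, which carry loxP sites around exons 2–4 of Reg3a and the Villin-Cre transgene, so that the deletion is restricted to the intestinal epithelium. The WT organoids came from Reg3a fl/fl mice, which carry the same floxed gene without Cre, so both genotypes share the loxP sites. Reg3a encodes a secreted lectin that the study links to wound healing. Donors were male and 9 weeks old, and organoids of at most 15 passages were collected 3 days after passage without added treatment. Each genotype had 4 libraries, numbered 5 to 8 for KO and 13 to 16 for WT. The labels contradict each other on replication, giving 1 mouse per genotype in 4 wells in one place and 3 mice per genotype in technical triplicate in another. Every p-value here is set against the variation among these 8 libraries alone, possibly technical, and, if 1 mouse was used, genotype cannot be told apart from mouse or organoid line. The composition of the culture medium, and so any EGF in it, was not stated in the sources used here.

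Library totals lay between 37182098 and 49256171 counts. Reg3a had 0 counts in all 8 libraries, so the targeted gene did not check the labels. Epithelial markers were abundant. They summed to 7980 to 8360 CPM (counts scaled to library size with TMM factors) in KO and 7740 to 8180 CPM in WT. Of these 6 markers 2, Vil1 and Cdx2, were called higher in KO, beside 7.63% of all tested genes. The 6 fibroblast markers summed to at most 0.371 CPM in KO organoids and 0.234 CPM in WT organoids, with Col1a2, Dcn and Lum at 0, and the 3 endothelial markers to at most 1.32 CPM in KO, in replicate 6, and 0.048 CPM in WT. Smooth muscle markers summed to at most 0.686 CPM in KO and 0.623 CPM in WT. Of the 5 immune markers Cd68 reached 42.7 CPM and was called lower in KO, and Cd3e was at 0. Ptprc, Adgre1 and Cd79a stood at 0.194 CPM or less in every library.

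ERBB receptors are tyrosine kinases of the cell surface that act in pairs. Their ligands are made as membrane-anchored precursors and are cut free by ADAM proteases, after which the bound receptors signal through RAS and ERK and through PI3-kinase and AKT. In the colonic epithelium this signalling drives crypt cell division and repair after injury. It also induces its own restraints, among them Errfi1, whose protein binds the kinase domain of the receptors and blocks it.

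Epiregulin RNA was higher and Errfi1 RNA lower in KO organoids, while the other members did not pass the test. Of the 9 tested members 1 rose and 1 fell (edgeR quasi-likelihood test; the threshold was a p under 0.05 after Benjamini-Hochberg adjustment over all 14945 genes tested). Across all tested genes 7.63% were called higher and 8.26% lower, 15.9% in all, against 2 of 9 members (22.2%), so the number of called members does not set the family apart. The median log2 fold change of the 9 members was -0.0038, and that of all tested genes -0.0012. On the authors' TPM 1202 genes were called higher and 772 lower, beside 1140 and 1234 on counts, and the same 2 members were called.

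**Figure D1:**
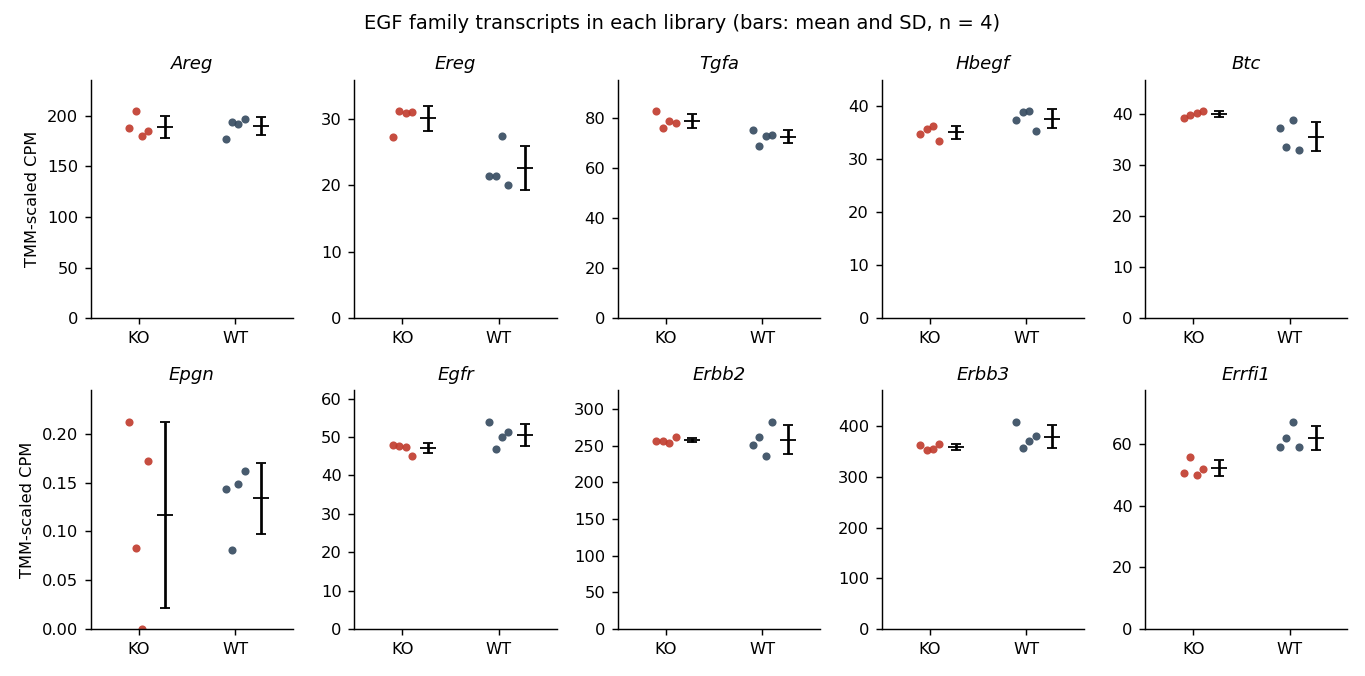
TMM-scaled CPM of the 10 genes in the 4 KO libraries (red, left) and 4 WT libraries (grey, right), with the mean and SD beside the points and axes that start at 0. Ereg lay higher in KO except that WT replicate 15 stood at 27.5 CPM, and Errfi1 lay lower in every KO library.

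The levels per transcript length, the authors' TPM (scaled to transcript length and library size), set the order of the members. Areg, which encodes amphiregulin, was the most abundant at 311 ± 14.0 TPM in KO and 305 ± 14.1 TPM in WT (SD, n = 4 each). Erbb3 followed at 120 ± 3.16 TPM in KO and 124 ± 7.63 TPM in WT, and Erbb2 at 103 ± 1.84 TPM in KO and 101 ± 6.32 TPM in WT. Their libraries did not overlap. In WT Errfi1 came next, at 39.4 ± 3.11 TPM, above Tgfa at 31.4 ± 1.38 TPM, Hbegf at 31.0 ± 1.78 TPM and Btc at 24.2 ± 2.32 TPM. In KO Tgfa, at 34.9 ± 1.38 TPM, and Errfi1, at 33.9 ± 1.39 TPM, overlapped, and Hbegf (29.6 ± 0.999 TPM) and Btc (27.8 ± 0.673 TPM) lay below both. Tgfa and Hbegf overlapped in WT but not in KO. Egfr stood at 18.1 ± 0.705 TPM in KO and 19.7 ± 1.08 TPM in WT, above Ereg at 14.5 ± 0.934 TPM in KO and 10.7 ± 1.77 TPM in WT. Epgn was lowest at 0.128 ± 0.102 TPM in KO and 0.139 ± 0.0397 TPM in WT.

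**Figure D2:**
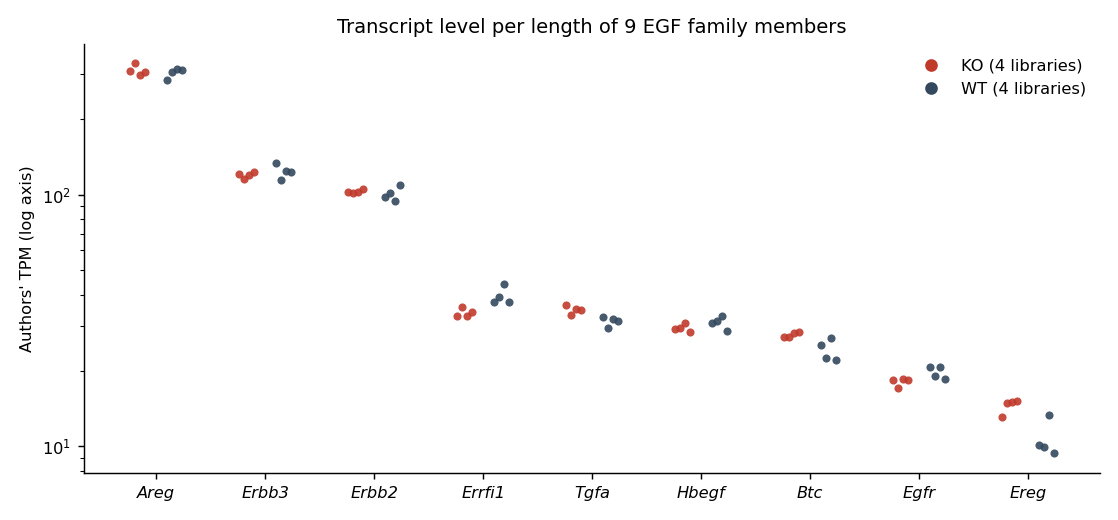
The authors' TPM on a log axis for 9 members, with the 4 KO libraries (red) left of the 4 WT libraries (grey); Epgn, which is 0 in KO replicate 7, is not drawn. Areg lies between 285 and 331 TPM in both genotypes, and Ereg between 9.38 and 15.1 TPM.

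Added over the 6 ligands, the TPM ran from 407.8 to 436.1 in KO and from 383.4 to 421.2 in WT. These ranges overlapped, and the difference in sum was not tested. The median log2 fold change of all tested genes was 0.0328 on the TPM, beside -0.0012 on counts. Areg made up 73.2% to 76.0% of the ligand sum in KO and 74.2% to 77.3% in WT. The part of Ereg was 3.17% to 3.69% in KO and 2.32% to 3.16% in WT. Ligand RNA was thus mostly Areg in both genotypes, and the 4 KO libraries held a slightly larger part of Ereg than any WT library. The margin was narrow (3.17% in KO replicate 5 and 3.16% in WT replicate 15), and the difference in share was not tested.

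Promoter sequences are shown for Errfi1, the member that fell, for Areg, the most abundant ligand, and for Btc, a ligand on the same chromosome as Areg. RefSeq windows on GRCm38.p6, from 250 bases before to 50 after a transcription start, were at hand for 7 of the 10 members (8 windows) and not for Ereg, Erbb3 and Hbegf. They were searched on both strands for the cAMP response element (CRE) TGACGTCA, the TATA box TATAAA and the AP-1 motif TGANTCA. The 120 bases before the start are chr4:150854950-150855069 on the + strand for the downstream start of Errfi1, chr5:91139479-91139598 on the + strand for Areg and chr5:91402995-91403114 on the - strand for Btc, written 5′ to 3′ with the CRE and the TATA box in capitals.
Errfi1: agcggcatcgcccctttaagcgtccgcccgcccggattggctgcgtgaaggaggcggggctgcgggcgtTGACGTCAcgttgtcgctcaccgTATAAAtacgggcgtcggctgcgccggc
Areg: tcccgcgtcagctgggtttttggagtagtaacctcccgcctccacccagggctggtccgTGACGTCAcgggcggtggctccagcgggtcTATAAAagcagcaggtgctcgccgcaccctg
Btc: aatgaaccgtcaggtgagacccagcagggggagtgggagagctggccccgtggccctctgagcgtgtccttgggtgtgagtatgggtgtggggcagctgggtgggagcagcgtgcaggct
At its downstream start Errfi1 held 1 CRE and 1 TATA box, beginning 51 and 28 bases before the start. The window at the upstream start of Errfi1 held 0 of either motif, and the downstream one was printed because it held a CRE. Areg held 1 CRE and 1 TATA box, beginning 61 and 31 bases before the start. The Btc window held neither, and among the other members searched 1 motif was found, a TATA box in Epgn. The CRE is found in 1.79% of all 32851 promoter windows and the TATA box in 13.6%. The pattern TGANTCA, with any base at N, was found in 7.81% of all windows and in none of the 8 windows searched. The counts do not separate transcripts from the 2 listed starts of Errfi1.

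Ereg encodes epiregulin, a ligand of EGFR and ERBB4 (NCBI Gene ID 13874, chromosome 5, 91074617 to 91093649, GRCm38). Its levels were 27.2, 31.2, 30.8 and 31.0 CPM in KO replicates 5 to 8, against 21.4, 21.4, 27.5 and 20.1 CPM in WT replicates 13 to 16. In 3 KO libraries the level was above every WT library, and KO replicate 5 lay just under WT replicate 15. The log2 fold change was 0.41 ± 0.09 (SE), or 1.33-fold, with an edgeR adjusted p = 0.00575. It passed in all 8 fits that left out 1 library (log2 fold change 0.36 to 0.52, edgeR adjusted p = 0.000142 to 0.0239), with the largest value without WT replicate 15. A non-coding gene, Gm19610, overlaps the start of Ereg on the opposite strand, and the labels do not say if reads were counted by strand. Gm19610 stood at 3.81 ± 0.664 CPM in KO organoids and 3.17 ± 0.579 CPM in WT organoids (SD, n = 4 each).

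Areg (Gene ID 11839, chromosome 5, 91139599 to 91148432), which lies 46.0 kb downstream of Ereg, stood at 188, 205, 180 and 185 CPM in KO, against 177, 193, 191 and 197 CPM in WT. The groups overlapped throughout, and the log2 fold change was -0.0029, with an SE of 0.05 and an edgeR adjusted p = 0.98, its sign depending on the scaling. Ereg stood at 4.26% to 5.04% of the Areg TPM in KO and at 3.00% to 4.21% in WT.

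Tgfa and Btc, 2 further EGFR ligand genes, had higher values in KO that missed the threshold. Tgfa encodes transforming growth factor alpha (Gene ID 21802, chromosome 6, 86195038 to 86275744). It stood at 83.1, 76.3, 78.9 and 78.3 CPM in KO, against 75.4, 69.2, 72.8 and 73.4 CPM in WT. Every KO library lay above every WT library, by a margin of under 1 CPM between the nearest pair. The log2 fold change was 0.12, with an SE of 0.05 and an edgeR adjusted p = 0.0853. Btc encodes betacellulin, which binds EGFR and ERBB4 (Gene ID 12223, chromosome 5, 91357261 to 91402994). It stood at 39.3, 39.7, 40.2 and 40.6 CPM in KO, against 37.1, 33.4, 38.7 and 32.8 CPM in WT. The KO libraries again lay above all of WT and were close together, while WT replicates 14 and 16 were the lowest. The log2 fold change was 0.17, with an SE of 0.06 and an edgeR adjusted p = 0.063, and it passed without WT replicate 15 (0.21, edgeR adjusted p = 0.0146). With the DESeq2 Wald test Tgfa (adjusted p = 0.0327) and Btc (adjusted p = 0.044) both passed, so that 3 members counted as higher. Of the 9 tested members 3, these 2 and Errfi1, had no overlap between genotypes: 2 lay above WT and 1 below. Of all tested genes 20.2% had no overlap, 9.91% with KO above and 10.3% with KO below.

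**Figure D3:**
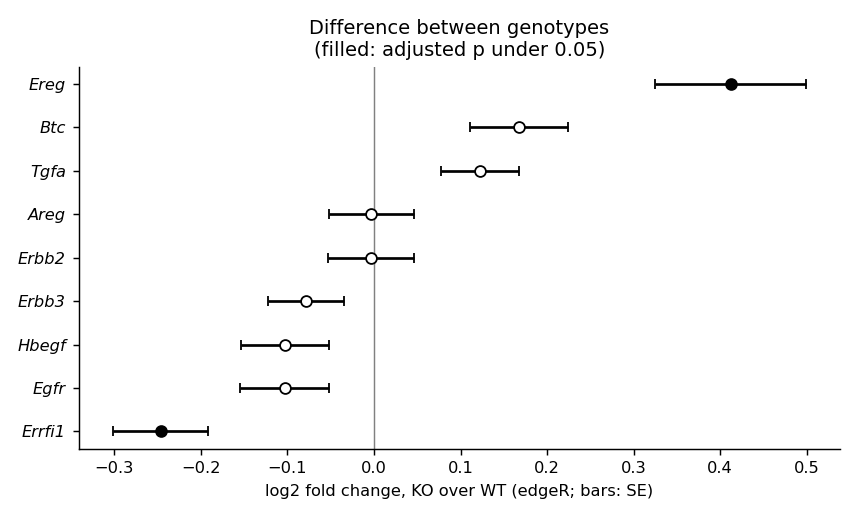
Fitted log2 fold change of KO over WT for the 9 tested members, with the SE as bars and filled points where the edgeR adjusted p is under 0.05. Ereg (0.41) and Errfi1 (-0.25) are filled, and Btc and Tgfa lie at 0.17 and 0.12.

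Hbegf, the gene of the heparin-binding ligand of EGFR and ERBB4 (Gene ID 15200, chromosome 18), stood at 34.9, 35.8, 36.3 and 33.5 CPM in KO, against 37.4, 38.9, 39.2 and 35.3 CPM in WT. Its libraries overlapped, with WT replicate 16 under 2 KO libraries, and the log2 fold change was -0.10, with an SE of 0.05 and an edgeR adjusted p = 0.2. Epgn, the epigen gene (Gene ID 71920, chromosome 5, 91027517 to 91035212), had 9, 4, 0 and 8 counts in KO, against 6, 4, 7 and 6 counts in WT. The 0 in KO replicate 7 allows up to 0.0633 CPM. Epgn had too few counts for the main test. With no low-count filter it was tested and not called, and such low counts do not settle whether its RNA differed.

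None of the 3 receptor genes passed the test, and each had a log2 fold change between -0.10 and 0. Egfr (Gene ID 13649, chromosome 11, 16752203 to 16913907) stood at 48.0, 47.6, 47.5 and 45.1 CPM in KO, against 54.0, 46.9, 49.9 and 51.4 CPM in WT. KO replicate 8 lay below all WT libraries, and the other 3 KO libraries lay above WT replicate 14 and below the rest of WT. The log2 fold change was -0.10, with an SE of 0.05 and an edgeR adjusted p = 0.204. Erbb2 (Gene ID 13866, chromosome 11, 98412484 to 98437716) encodes the partner receptor with no known soluble ligand. It stood at 257, 257, 254 and 261 CPM in KO, against 251, 262, 236 and 283 CPM in WT. The KO libraries all lay inside the wider WT range, at a log2 fold change of -0.0038, with an SE of 0.05 and an edgeR adjusted p = 0.975, whose sign also depended on the scaling. The gene overlaps Mien1 on the other strand, which was called lower and stood at 111 ± 3.23 CPM in KO organoids and 123 ± 6.00 CPM in WT organoids (SD, n = 4 each; edgeR adjusted p = 0.042). Erbb3 (Gene ID 13867, chromosome 10, 128567523 to 128589635) encodes the receptor with little kinase activity of its own, which signals through its partners. It stood at 363, 352, 355 and 366 CPM in KO, against 409, 356, 370 and 381 CPM in WT, with overlap and a log2 fold change of -0.08, with an SE of 0.04 and an edgeR adjusted p = 0.269.

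The ratio of TPM to CPM for Egfr varied between libraries, at 0.358 to 0.407 in KO and 0.361 to 0.414 in WT. For Errfi1 it was steadier, at 0.640 to 0.655 in KO and 0.629 to 0.651 in WT. The gene length behind each TPM was not stated, so differences in Egfr between libraries are read here from CPM. Summed over the 3 receptors the TPM was 233.5 to 246.7 in KO and 234.8 to 252.0 in WT, which overlapped.

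Errfi1, also known as MIG6, is the feedback inhibitor of these receptors (Gene ID 74155, chromosome 4, 150853796 to 150868889). It stood at 50.8, 56.0, 50.1 and 52.2 CPM in KO, against 59.2, 62.1, 67.4 and 59.2 CPM in WT. All KO libraries lay below all WT libraries, with KO replicate 6 the nearest to them and WT replicate 15 the farthest. The log2 fold change was -0.25 ± 0.06 (SE), or 0.843 of the WT level, with an edgeR adjusted p = 0.00801. It passed in all 8 fits that left out 1 library (log2 fold change -0.28 to -0.20, edgeR adjusted p = 0.0067 to 0.0353). A non-coding gene that overlaps it on the other strand, 1700045H11Rik, had 0 counts in every library.

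**Figure D4:**
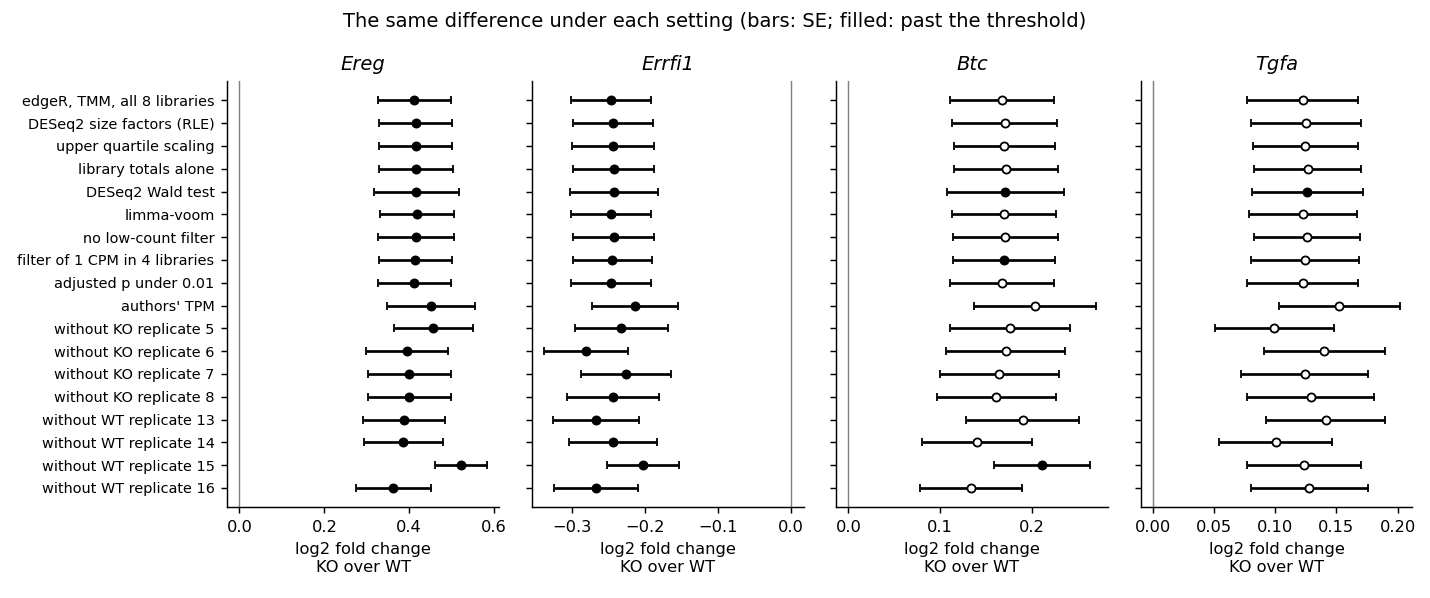
Log2 fold change of KO over WT and its SE for Ereg, Errfi1, Btc and Tgfa under the edgeR fit to all 8 libraries and 17 alternatives, with filled points where the threshold is passed. Ereg and Errfi1 are filled in every row, Btc in 3 rows and Tgfa in 1.

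Markers of the cells that make up the crypt differed between genotypes. Beside the counts below, 7.63% of all tested genes were called higher and 8.26% lower. All 4 cycling markers were called lower in KO, with sums of 648 to 691 CPM in KO and 766 to 958 CPM in WT. Of the 4 stem cell markers 3 were lower (179 to 195 CPM in KO, 193 to 203 CPM in WT). Most of that sum was Axin2, the marker not called (145 ± 4.94 CPM in KO, 141 ± 5.46 CPM in WT). Lgr5, Ascl2 and Smoc2, the 3 called, stood at 0.71, 0.771 and 0.48 of their WT levels. Goblet cell markers had 4 of 6 lower (102 to 127 CPM in KO, 144 to 186 CPM in WT). Of the 6 colonocyte markers 4 were higher and 1 lower (2490 to 2690 CPM in KO, 1180 to 1480 CPM in WT). Enteroendocrine markers had 2 of 5 lower (18.3 to 26.7 CPM in KO, 26.6 to 38.7 CPM in WT). The 4 deep crypt secretory and Paneth markers had 2 of 3 tested lower (4.68 to 6.12 CPM in KO, 5.86 to 9.49 CPM in WT). Of the 4 tuft cell markers 1 was tested and was lower (0.301 to 0.662 CPM in KO, 0.646 to 0.935 CPM in WT). Pou2f3 was at 0. The part of these cells in the Ereg and Errfi1 differences was not tested. In bulk RNA, fewer cells of a type and less RNA per cell cannot be told apart.

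The other ERBB ligand and receptor genes stood at 0.660 CPM or less in every library. Of 6 such genes 1 was tested and none passed. Egf itself stood at 0.355, 0.578, 0.654 and 0.624 CPM in KO, against 0.384, 0.323, 0.660 and 0.351 CPM in WT, with overlap (log2 fold change 0.36 with SE 0.31 and edgeR adjusted p = 0.5). The receptor gene Erbb4 and the neuregulin gene Nrg3 had 0 counts in all libraries, which allows at most 0.0606 to 0.0810 CPM, and Nrg4 had at most 0.0861 CPM in KO organoids and 0.141 CPM in WT organoids.

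Of the 10 genes for the release of ligands 9 were tested, and 1 fell (11.1%, beside 15.9% of all tested genes). Timp3, which encodes an inhibitor of ADAM17 and other metalloproteases, stood at 130 ± 8.04 CPM in KO organoids and 150 ± 12.2 CPM in WT organoids (SD, n = 4 each; log2 fold change -0.20 with SE 0.06 and edgeR adjusted p = 0.0338). KO replicate 5, at 142 CPM, lay within the WT range. Timp3 missed the threshold in fits that left out any 1 of KO replicates 6 to 8 and WT replicate 13, at an edgeR adjusted p = 0.0822 to 0.107. The main proteases that release EGFR ligands, named here for that role, did not pass: Adam10 stood at 302 ± 5.89 CPM in KO libraries and 313 ± 28.1 CPM in WT libraries (edgeR adjusted p = 0.594), and Adam17 at 56.7 ± 1.52 CPM in KO libraries and 55.1 ± 1.30 CPM in WT libraries (0.609). Of the 12 genes that restrain or degrade the receptors, all tested, 2 rose and none fell. These 16.7% lay near the 15.9% called among all tested genes, and the list's median log2 fold change was 0.0144. Sh3kbp1, whose product links the ubiquitin ligase CBL to endocytosis of the receptors, stood at 73.6 ± 2.34 CPM in KO organoids and 58.8 ± 2.87 CPM in WT organoids (log2 fold change 0.32 with SE 0.05 and edgeR adjusted p = 0.00052). Ptprj, a receptor tyrosine phosphatase gene, stood at 148 ± 10.2 CPM in KO organoids and 118 ± 3.93 CPM in WT organoids (0.33 with SE 0.05 and edgeR adjusted p = 0.000883). For both genes every KO library exceeded every WT library. The 2 genes kept their calls in all 17 alternatives.

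Of the 26 adaptor and kinase genes, all tested, 2 fell and none rose. Pik3ca, the gene of a catalytic PI3-kinase subunit, stood at 66.3 ± 1.6 CPM in KO organoids and 74.0 ± 4.20 CPM in WT organoids (SD, n = 4 each; log2 fold change -0.16 with SE 0.05 and edgeR adjusted p = 0.0398). Akt2, an AKT kinase gene, stood at 78.9 ± 3.96 CPM in KO organoids and 87.5 ± 2.20 CPM in WT organoids (-0.15 with SE 0.05 and edgeR adjusted p = 0.0423). Pik3ca missed the threshold in fits that left out any 1 of the 4 KO libraries and WT replicates 13 and 15, at an edgeR adjusted p = 0.0536 to 0.127. Akt2 missed it without any 1 of KO replicates 6 to 8 and WT replicates 13 and 16, at 0.0842 to 0.159. The list's median log2 fold change was 0.04, beside -0.0012 for all tested genes, and its 7.69% of called genes lay under the 15.9% of all.

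Genes that ERK signalling is known to induce moved both ways. Of 20, all tested, 2 rose and 2 fell (20%, beside 15.9% of all tested genes). The list's median log2 fold change was 0.0076. Dusp4, the gene of a nuclear phosphatase that switches off ERK, fell furthest among those called: it stood at 113, 116, 107 and 113 CPM in KO, against 143, 139, 131 and 140 CPM in WT (log2 fold change -0.30 with SE 0.04 and edgeR adjusted p = 0.000473). Every KO library lay well below every WT library, and the call held in all 17 alternatives. Ccnd1, the cyclin D1 gene, rose to 346 ± 14.4 CPM in KO, against 305 ± 4.19 CPM in WT (SD, n = 4 each; 0.18 with SE 0.04 and edgeR adjusted p = 0.00646), and its call also held in all 17. Ier3, an early response gene, stood at 188 ± 9.19 CPM in KO organoids and 170 ± 4.33 CPM in WT organoids (0.15 with SE 0.04 and edgeR adjusted p = 0.0368). Egr1, an early response transcription factor gene, stood at 30.1 ± 1.10 CPM in KO organoids and 33.6 ± 1.32 CPM in WT organoids (-0.16 with SE 0.05 and edgeR adjusted p = 0.0455). Ier3 missed the threshold without any 1 of KO replicates 6 to 8 and WT replicates 13 and 16, at an edgeR adjusted p = 0.0585 to 0.141. Egr1 missed it without any 1 of KO replicates 5, 7 and 8 and WT replicates 13, 14 and 16, at 0.0737 to 0.131. Over these 5 lists together 4 of 68 tested genes rose and 5 fell, or 13.2%, which is close to the 15.9% of all tested genes.

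**Figure D5:**
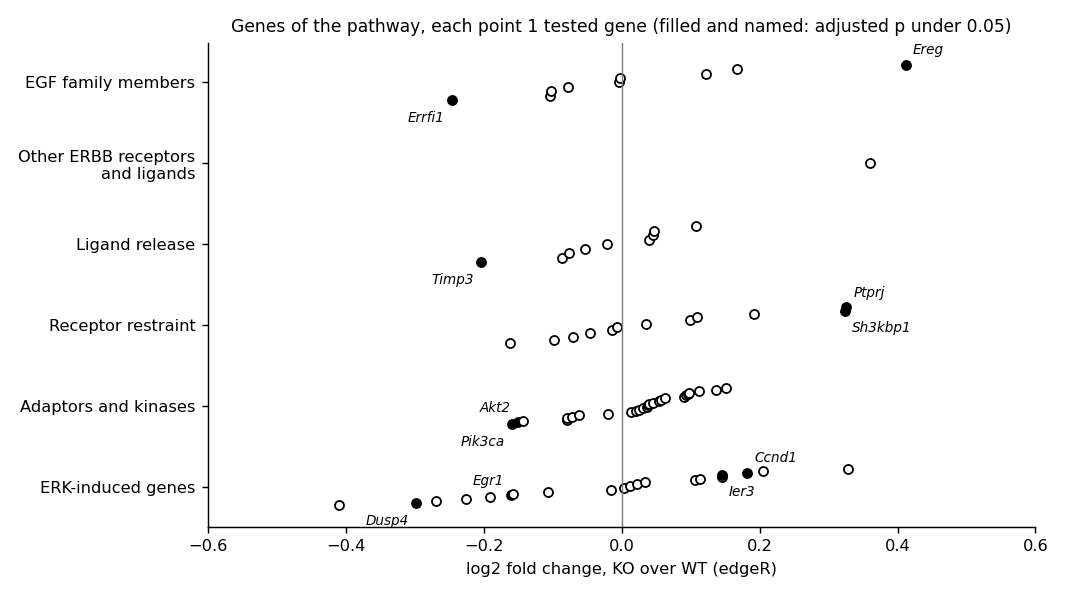
Log2 fold change of KO over WT for each tested gene of the EGF family and of 5 further lists of the pathway, with filled and named points where the edgeR adjusted p is under 0.05. Called genes lie on both sides of 0, from Dusp4 at -0.30 to Ereg at 0.41.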

How the data were processed

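RNA sequencing counts of 4 KO and 4 WT libraries came from 1 table. The deposited counts are whole numbers per gene, not normalized. The authors' FPKM was deposited beside them and not used, and the authors' TPM was used for levels between genes. The submitters' processing notes name GRCm38 as the build, and HTSeq, TopHat, TopHat2 and Bowtie2 as tools without version or role. More genes had 2 counts (673 to 772 per library) than 1 count (548 to 622), as would occur if paired mates were counted apart. A count of 0 was taken to allow 3 counts, for counting error only, and more if mates were counted apart.

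After filterByExpr and TMM scaling, all remaining genes were tested by quasi-likelihood in edgeR 4.0.16 (R 4.3.3), with Benjamini-Hochberg adjustment over all tested genes. The step was tested on simulated data. SE is the log2 fold change divided by the square root of F. Pairs of libraries of 1 genotype differed beyond counting noise, and WT pairs more than KO pairs. The chi-square per degree of freedom was 4.94 to 10.7 for KO pairs and 11.1 to 24.9 for WT pairs. For a KO library paired with a WT library it was 25.9 to 41.2. Alternatives used DESeq2 1.42.0, limma 3.58.1, other scalings and filters, the TPM with a pseudocount of 0.1, and each library left out in turn. Plots were drawn with matplotlib 3.10.9.

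The members and gene lists were chosen with earlier results of these data known. Of each list other than the members the rule names up to 3 genes higher and 3 lower with the smallest adjusted p, or the 2 most abundant where none passed, and for each called member the 2 genes of most similar pattern.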

Additional observations from a re-analysis of the deposited data

Results flagged for a closer look

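Among 21 named genes, 42 sets of 4 libraries of 1 genotype were searched for a library far from the other 3, measured as its gap to the nearest library over the whole range, by Dixon's 95% critical value. Chance gives about 1 in 20. Of the 5 sets that exceeded it, Nrg4 had 0 counts in 3 libraries, which fixes the ratio at 1, so that set is no sign of a library apart. Ereg was low in KO replicate 5, at 27.2 CPM with the others at 30.8 or more (gap over range 0.912), and without that library the log2 fold change was 0.46 (edgeR adjusted p = 0.00831). Egfr was low in KO replicate 8, at 45.1 CPM with the others at 47.5 or more (0.846). Timp3 was high in KO replicate 5, at 142 CPM (0.842), and Ptprj low in KO replicate 6, at 133 CPM (0.973). Nrg4 was above 0 in KO only in replicate 8, at 0.0861 CPM (1).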

How the results depend on the processing

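Ereg was called higher and Errfi1 lower in all 17 alternatives. The count of members higher, 1, became 3 with DESeq2 and 2 with a filter of 1 CPM in 4 libraries, and ran from 1 to 2 with 1 library left out. That of members lower was 1 throughout. The background counts, 1140 higher and 1234 lower, became 562 and 597 at an adjusted p under 0.01. With the authors' TPM they were 1202 and 772. They ran from 696 to 1386 higher and from 724 to 1404 lower with 1 library left out, with 757 higher without KO replicate 5, 808 lower without WT replicate 13 and the lowest values without KO replicate 8. Of the other pathway lists 5 genes were lower, and 1 with no low-count filter, at an adjusted p under 0.01 or with the TPM. Their count ran from 3 to 6 higher and from 1 to 6 lower with 1 library left out, at 1 when KO 7, KO 8 or WT 13 was dropped and at 3 when KO 5, KO 6 or WT 16 was. Timp3, Pik3ca, Akt2 and Egr1 lost their calls under these 3 alternatives (adjusted p = 0.0556 to 0.25 with no filter or the TPM), and Ier3 at the stricter threshold and with no filter (0.0541). Egr1 also lost it with upper quartile scaling (0.0614), library totals (0.0524) and limma-voom (0.0501). The sign of 2 uncalled genes turned. Erbb2 became 5.4e-05 with library totals, 0.00015 with DESeq2, 5.2e-05 with limma-voom, 3.4e-05 with no filter and 0.0314 with the TPM, and ran from -0.0437 to 0.0438 with 1 library left out. Areg became 0.00064 with library totals, 0.00088 with DESeq2, 0.00069 with no filter and 0.0289 with the TPM, and ran from -0.0421 to 0.0215 with 1 library left out. With the TPM the median log2 fold change of all tested genes was 0.0328, beside -0.0012 in the main fit. The cause of these changes of count, call and sign was not tested. No paired analysis was possible because the genotypes share no library numbers. Depth limits Epgn, Nrg4 and the other genes near 0 counts.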

Other observations

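Epgn, Ereg, Areg and Btc lie together on mouse chromosome 5 within 375.5 kb. Of 29 tested genes from 1 Mb before Epgn to 1 Mb after Btc, 2 were called higher and 3 lower in KO, a share near the 15.9% called among all tested genes. Besides Ereg, Cdkl2 was higher, at 11.5 CPM in KO, against 9.26 CPM in WT (edgeR adjusted p = 0.0311). Those lower, all named after their values were seen, were the neutrophil chemokine gene Cxcl1 (0.385 CPM in KO, 1.57 CPM in WT, edgeR adjusted p = 0.000203), Parm1 (246 CPM in KO, 276 CPM in WT, 0.0226) and Rchy1 (53.3 CPM in KO, 60.0 CPM in WT, 0.0235).

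The genes of at least 5 CPM whose centred log2 CPM over the 8 libraries was closest to that of Ereg were Mmut, the gene of a mitochondrial mutase (root mean square difference 0.0703, 74.3 CPM in KO, 55.8 CPM in WT), and Samd9l (0.0711, 137 CPM in KO, 103 CPM in WT). Closest to Errfi1 were Optn, the optineurin gene (0.0365, 64.9 CPM in KO, 75.7 CPM in WT), and Tec, a tyrosine kinase gene (0.0376, 21.5 CPM in KO, 24.7 CPM in WT). These were the smallest differences among 9812 genes and describe these libraries.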
